A study of Mus musculus with 4 samples.

Results

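The endoplasmic reticulum (ER) stress response was examined through 10 genes in the liver of diet-induced obese (DIO) mice that received either saline or galanin-like peptide (GALP, made by neurons of the hypothalamus) through the nose. The genes were Hspa5, Hsp90b1, Calr, Pdia4, Pdia6, Dnajb9, Herpud1, Xbp1, Ddit3 and Trib3, chosen by name as known members of the response, and every gene probe that the array files name for them was taken. This gave 18 probes for 10 of the 26582 gene names on the array. Hspa5, Pdia4, Herpud1, Xbp1 and Ddit3 have 1 probe each, and the other 5 genes have between 2 and 4.

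All groups were male C57BL/6J mice, bought at 8 weeks of age, kept on high-fat food for 14 weeks until they weighed 40 g or more, and acclimatized for 2 weeks. GALP (porcine, 1 nmol, in saline with 5% α-cyclodextrin) or saline was given once daily in 2 μL for 11 days. Per the methods, high-fat food stayed freely available throughout this dosing, and 1 week of daily saline through the nose came before it. Liver RNA was pooled before labelling: 4 GALP mice with greater weight loss, 4 GALP mice with less weight loss, and 8 saline mice as 1 control pool. Each GALP pool was hybridized against control RNA on 2 dual-colour Agilent arrays with the dyes swapped, so that the data hold 4 arrays of 1 slide, 2 GALP pools and 1 control pool. The labels put the word of the weight loss group on the control channel too, but the design text describes a single pool of control mice. A value is given as the log2 ratio of GALP over control. The ± is the SD of the 2 pools, each the mean of its arrays. It holds no spread between mice and none of the control pool, which both pools share.

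The ER folds, glycosylates and exports the many secreted proteins of a hepatocyte. When unfolded proteins build up there, 3 sensors in its membrane act: IRE1 (gene Ern1) splices the mRNA of the factor XBP1, ATF6 is cut in the Golgi to release a transcription factor, and PERK (Eif2ak3) slows translation and raises the factor ATF4. XBP1 and ATF6 induce chaperones, foldases and the machinery that returns misfolded proteins to the cytosol for degradation, whereas ATF4 induces CHOP (Ddit3), Trib3 and genes of amino acid synthesis.

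The 4 Pdia6 probes gave unlike ratios, and therefore 2 of them are shown. Both lie on chromosome 12 of build mm9 on the plus strand, as the array files give it: A_52_P339495 at chr12:17277232-17277291, with a RefSeq accession (NM_027959), and A_52_P135455 at chr12:17289144-17289203, which the files tie only to the cDNA clone AK148928. The files do not say whether a probe lies in an exon, an intron or an untranslated part.
A_52_P339495: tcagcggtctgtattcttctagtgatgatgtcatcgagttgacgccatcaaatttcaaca
A_52_P135455: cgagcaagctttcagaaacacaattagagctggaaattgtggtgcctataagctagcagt
A_52_P135455 has a GC content of 43.3% and A_52_P339495 one of 41.7%. The longest run of bases that A_52_P135455 shares with another Pdia6 probe on either strand is 7, and 0 other probes of the array hold a run of 15 of its bases in the same orientation.

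The 10 genes were also compared by their promoters, since several carry the ER stress response element (ERSE), known to be bound by ATF6 with the CCAAT factor NF-Y. ERSE was searched as CCAAT, then 9 bases, then CCACG, and ERSE-II, which ATF6 and XBP1 can use, as ATTGG, 1 base, CCACG, on both strands of RefSeq promoters (250 bases before to 50 after a start site, build GRCm38.p6). All 10 genes were in the table. ERSE occurred in 4 of the 10 (Hspa5, Hsp90b1, Calr and Pdia6) and in 0.119% of all 32851 promoters. ERSE-II occurred in Herpud1 alone of the 10 and in 0.0365% of all promoters. The matches are shown along the strand of the element, with both boxes in capitals.
Hspa5: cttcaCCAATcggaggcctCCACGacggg
Hsp90b1, distal: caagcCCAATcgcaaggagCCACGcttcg
Hsp90b1, proximal: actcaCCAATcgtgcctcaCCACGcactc
Calr: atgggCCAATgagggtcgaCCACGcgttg
Pdia6: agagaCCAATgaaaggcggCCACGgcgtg
Herpud1: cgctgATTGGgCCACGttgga
The Hspa5 stretch lies at chr2:34772020-34772048 (plus strand) and its element at -65 to -47 from the start site. The Hsp90b1 stretches lie at chr10:86705633-86705661 (minus) and chr10:86705528-86705556 (plus), that of Calr at chr8:84847070-84847098 (plus), that of Pdia6 at chr12:17266486-17266514 (plus) and that of Herpud1 at chr8:94386372-94386392 (plus). The UPRE, searched as TGACGTGG, occurred in 0 of the 10 promoters and in 0.676% of all. The CARE element of ATF4, searched as TGATGNAA, occurred in Herpud1 and Trib3 and in 3.97% of all promoters. These matches describe the sequence only.

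The tissue was checked by markers before the ratios were read. All 10 hepatocyte markers, among them Alb and Ttr, were well above background, with a median log2 ratio of 0.12 in the greater and -0.00 in the less weight loss pool. The 9 markers of pancreatic acinar cells, which secrete digestive enzymes from a large ER, were also well above background on the control side. They had -2.88 to -4.11 in the greater weight loss pool, where 9 of 9 passed the rule given next for that pool, and 0.49 to 0.88 in the less weight loss pool, where 8 of 9 did. Their summed signal was 127504 to 164174 in the control channels, 10128 to 14520 in the GALP channels of greater weight loss and 216318 to 227263 in those of less weight loss. The control and the less weight loss pool thus carried acinar transcripts that the greater weight loss pool held at a lower level. Of 6 plasma cell markers, 4 had signal. Jchain (the J chain of secreted antibodies) was called lower, with -1.04 ± 0.02, and Mzb1, an ER protein of plasma cells, had -0.79 ± 0.10 and was not called. Pou2af1 had -0.70 ± 0.02 and was not called. Prdm1, well above background in only 2 channels, had 0.61 in the greater and -0.63 in the less weight loss pool, and was not called. The summed plasma cell signal was 459 to 594 in the control and 245 to 353 in the GALP channels, and Tnfrsf17 and Irf4 were well above background in no channel. In bulk RNA, fewer cells of a type and less RNA per cell cannot be told apart. The part of these cells in the values below was not tested.

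The methods' selection rule was read as follows. A probe is called where Feature Extraction gave its log ratio a p-value under 0.01 on all 4 arrays, the direction was the same on all 4, and the fold was over 1.5 or under 0.75 in both pools. That p-value compares 2 labelled extracts on 1 array and not treatments. Of the 18 probes, 16 had a value on all 4 arrays, and the other 2 carried an outlier mark of the scanner software on 1 array. Of these 16, 0 were called higher, against 0.0585% of the 41037 probes tested, and 1 was called lower, against 0.132%. The called probe was A_52_P135455 of Pdia6. By the same thresholds within the greater weight loss pool alone, 0 were higher (0.292% of all probes) and 1 was lower (0.395%), and within the less weight loss pool alone, 0 were higher (0.234%) and 1 was lower (0.363%). In each case it was this Pdia6 probe.

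**Figure D1:**
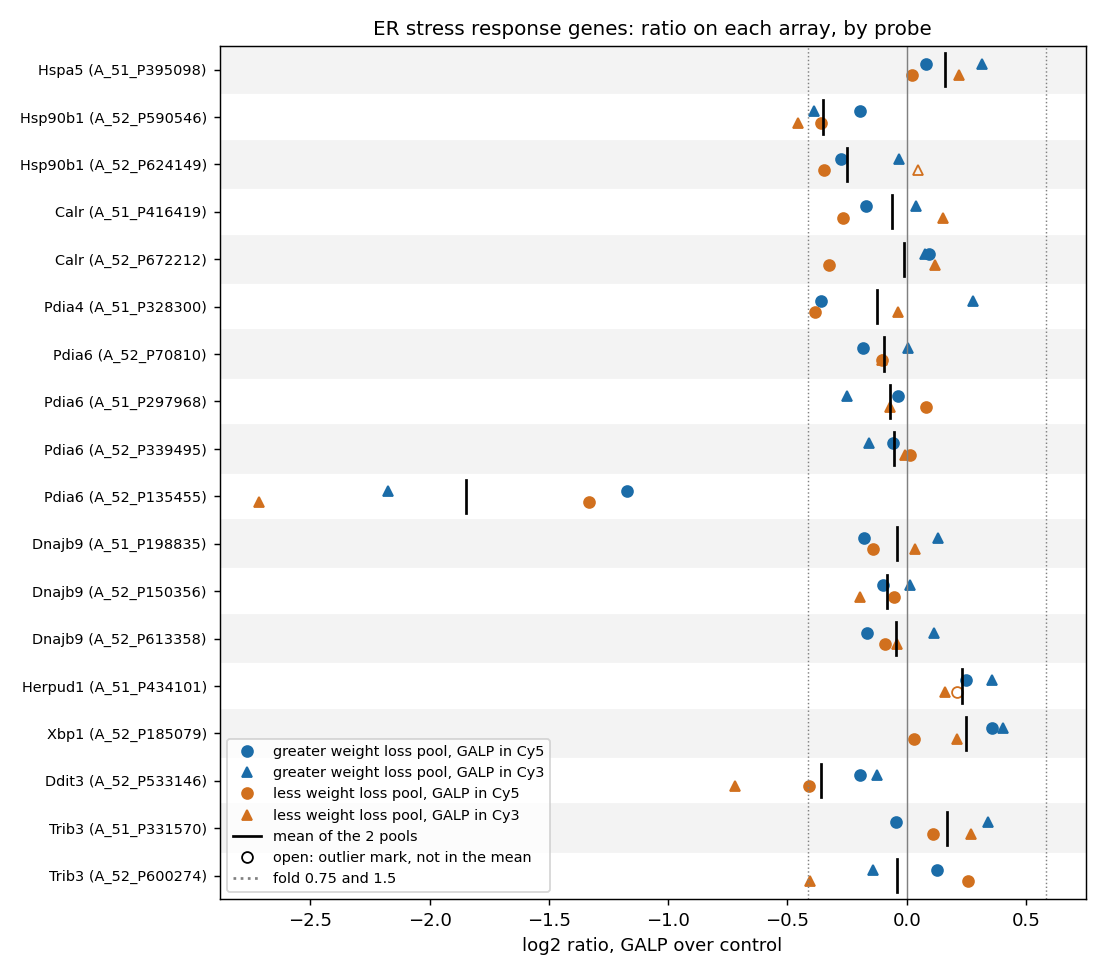
Log2 ratio of GALP over control on each of the 4 arrays (x axis) for the 18 probes of the 10 genes (y axis). Colour gives the pool, shape the dye of GALP, a bar the mean of the pools and dotted lines the folds 0.75 and 1.5; the points of A_52_P135455 lie between -2.72 and -1.17, whereas every other pool mean lies between -0.56 and 0.38.

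A test across the pools called none of them. With limma on the ratios of the 2 pools, 0 of the 16 probes had an adjusted p under 0.05, as had 0% of all probes tested, and the smallest adjusted p of the 16 was 0.374. At an unadjusted p under 0.05, 1 probe was higher (Trib3), against 4.99% of all probes, and 4 were lower (1 of Hsp90b1, 1 of Calr and 2 of Pdia6), against 6.6%. With 2 values a probe, 2 ratios that happen to lie close together can give a small p: that Calr probe had -0.06 ± 0.00.

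The 17 probes with a RefSeq accession had mean folds between 0.779 and 1.19. Their median mean log2 ratio was -0.05, and the median of its absolute value was 0.10. Over the 14461 probes of the array well above background in every channel these were -0.02 and 0.10. Of the 18 probes, 16 were well above background in all 8 channels.

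Among the chaperones, Hspa5 (BiP, the chaperone that holds the sensors inactive; NM_022310, chromosome 2, 34631630 to 34631689, mm9) had log2 ratios of 0.08 and 0.31 on the arrays of the greater and 0.02 and 0.22 on those of the less weight loss pool, in the order GALP in Cy5, GALP in Cy3. All 4 were above 0, and in both pools the array with GALP in Cy3 was the higher one. Its processed signal was 24233 to 31858 in the GALP and 23760 to 30143 in the control channels, ranges that overlapped. The mean was 0.16 ± 0.05 (SD, n = 2 pools), with an adjusted limma p of 0.479. With normexp background correction and loess in place of the software's ratios, it was -0.07, so its direction depended on the processing.

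Hsp90b1 encodes GRP94, the HSP90 of the ER. Its first probe (A_52_P590546, chromosome 10, 86161329 to 86161388) had -0.19 and -0.39 in the greater weight loss pool and -0.36 and -0.46 in the other. The signal was 14413 to 19995 in the GALP and 18891 to 23932 in the control channels. The GALP channel was the dimmer one on each of the 4 arrays, although the ranges over the arrays overlapped. The mean was -0.35 ± 0.08 (SD, n = 2 pools), 0.785-fold, with an unadjusted limma p of 0.0397 and an adjusted p of 0.416. The second probe (A_52_P624149, 86153770 to 86153829) had -0.27 and -0.03 with greater weight loss and -0.35 on 1 array with less weight loss. Its spot on the other array bore the outlier mark, had 0.05, and was left out of the mean of -0.25 ± 0.14 and of the limma fit. Neither probe was called, and in both pools the value was below 0 at both probes.

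Calr encodes calreticulin, a calcium-binding chaperone of glycoproteins. The probe A_51_P416419 had -0.17 and -0.27 with GALP in Cy5 and 0.04 and 0.15 with GALP in Cy3, so its sign followed the dye and not the pool. The other probe, A_52_P672212, had -0.01 ± 0.13. Dnajb9 encodes ERdj4, a co-chaperone of BiP and a target of XBP1. Its 3 probes lie close together on chromosome 12 (45307313 to 45307968) and gave -0.04 ± 0.02, -0.08 ± 0.06 and -0.05 ± 0.03. They differed from each other by 0.04 in the mean.

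Pdia4 and Pdia6 encode protein disulfide isomerases, which make and reshuffle disulfide bonds. Pdia4 (NM_009787, chromosome 6) had -0.36 and 0.28 in the greater weight loss pool and -0.38 and -0.03 in the other. Both arrays with GALP in Cy5 lay below those with GALP in Cy3, and the mean was -0.12 ± 0.12. The 3 RefSeq probes of Pdia6 had -0.10 ± 0.01 (A_52_P70810, 17290963 to 17291022), -0.07 ± 0.11 (A_51_P297968, 17291323 to 17291382) and -0.05 ± 0.08 (A_52_P339495).

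**Figure D2:**
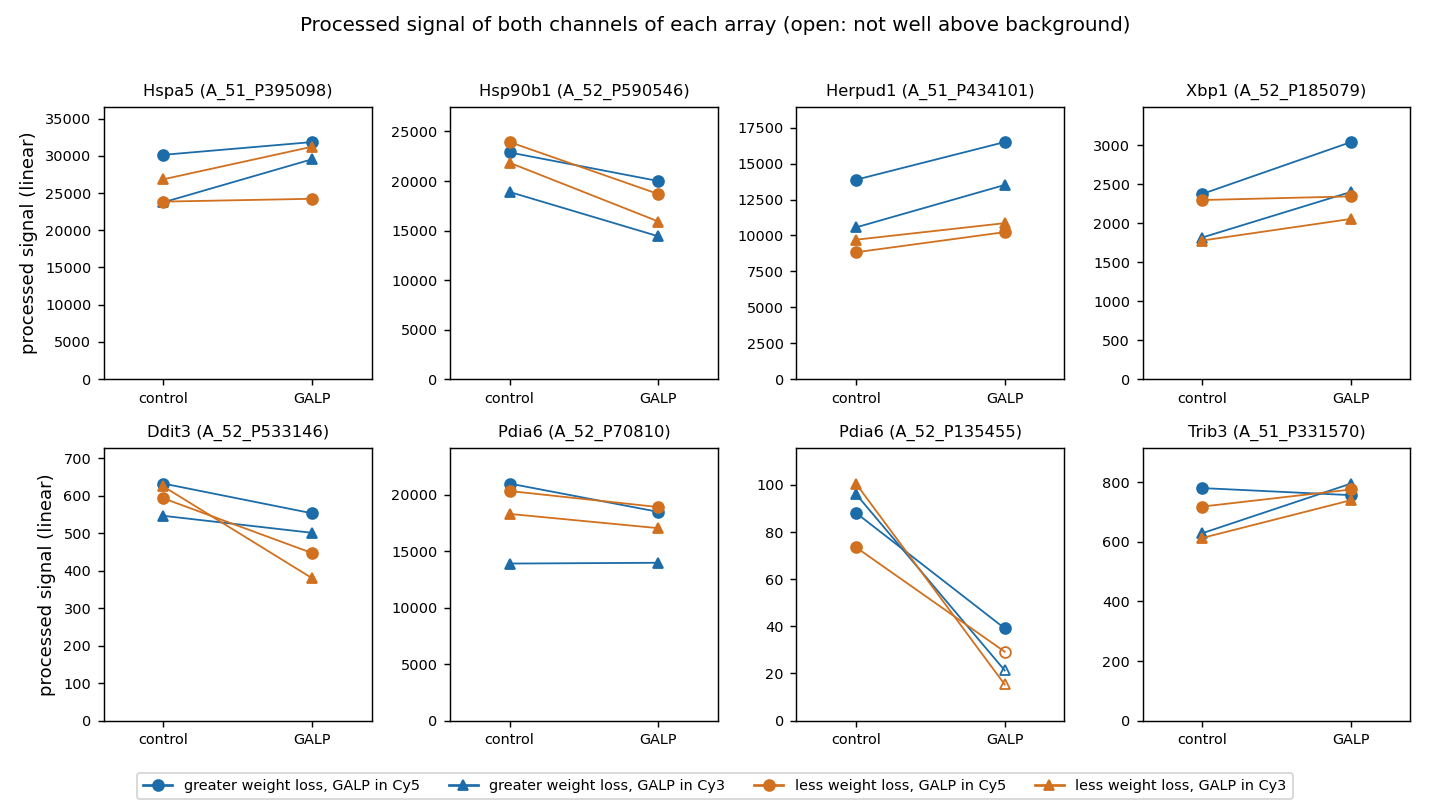
Processed signal on a linear scale from 0 (y axis) of the control and the GALP channel (x axis) for 8 of the probes, with 1 line per array, coloured by pool and shaped by dye. On every array the GALP channel lies above control at the probes drawn for Herpud1, Xbp1 and Hspa5 and below it at those drawn for Hsp90b1 (A_52_P590546) and Ddit3; at A_52_P135455 the GALP channel is well above background on 1 of 4 arrays (filled) and not on the other 3 (open).

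The fourth Pdia6 probe, A_52_P135455, stood apart. Its log2 ratios were -1.17 and -2.18 in the greater weight loss pool and -1.33 and -2.72 in the other, and the Feature Extraction p-values were 0.00114, 1.06e-08, 0.00155 and 2.85e-07. The ratio was below 0 on every array, and in both pools it was farther from 0 with GALP in Cy3. The control signal was 73.6 to 101 and well above background on 4 of 4 arrays. The GALP signal was 15.3 to 39.1, below the control range, and well above background on 1 of 4 arrays, the one of greater weight loss with GALP in Cy5. In the less weight loss pool it was well above background on neither array, so only a limit can be given there: at least 2.26-fold lower, against the lowest GALP signal that was well above background on each array or the spot's own signal where that was higher. The software's ratios averaged -1.85 ± 0.25 (SD, n = 2 pools), with an unadjusted limma p of 0.0176 and an adjusted p of 0.374.

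By the software's ratios the 4 Pdia6 probes differed by 1.80 in the mean, and the 3 RefSeq probes by 0.04. The first value rests on GALP signals that were well above background on 1 of 4 arrays, so it is not a measured size. A_52_P135455 lies 11912 bases after A_52_P339495 and 1760 bases before A_52_P70810 on the same strand, between probes that had ratios near 0. The clone behind it, a full-length cDNA of the RIKEN collection from neonatal sympathetic ganglion, carries the older name thioredoxin domain containing 7. The gene name of this probe on the array is Pdia6, as for the 3 RefSeq probes. Of all probes tested, 27.1% list no RefSeq accession, as did 13 of the 78 called.

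The size of this ratio depended on how background was handled. With normexp correction and an offset of 50, which is of the order of the probe's own signals, its ratio was -0.23 (-0.20 with greater and -0.27 with less weight loss), it was no longer called, and the spread between the 4 probes was 0.24. The offset pulls the ratio of a dim spot towards 0 by construction. Within 1 dye orientation the mean was -1.25 (GALP in Cy5) and -2.45 (GALP in Cy3).

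**Figure D3:**
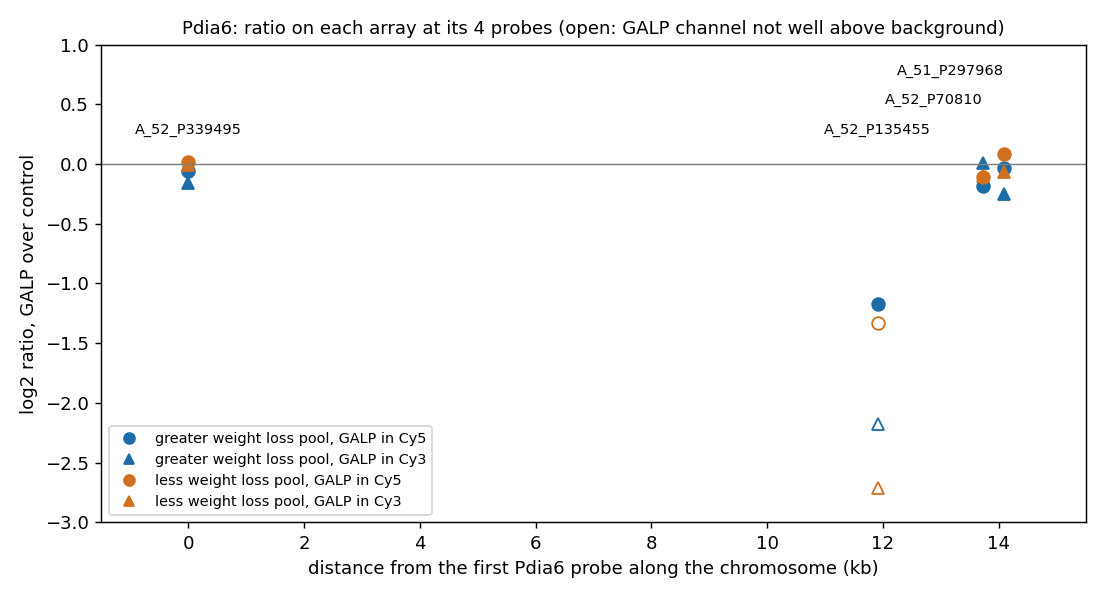
Log2 ratio of GALP over control on each array (y axis) at the 4 Pdia6 probes, placed by their distance in kb from the first probe along the chromosome (x axis). A_52_P135455, 11912 bases from the first, lies between -2.72 and -1.17, with the GALP channel not well above background at the open points, and the 3 others lie between -0.25 and 0.08.

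Herpud1 and Xbp1 lay above 0. Herpud1 (HERP, an ER membrane protein of the degradation machinery; chromosome 8, 96919117 to 96919176) had 0.25 and 0.36 with greater weight loss. With less weight loss it had 0.16 on 1 array, while the spot on the other array bore the outlier mark at 0.21 and was left out of its mean of 0.23 ± 0.10 and of the limma fit. The GALP channel was the brighter one on each array, marked spot included. Xbp1 (chromosome 11, 5424970 to 5425029) had 0.36 and 0.40 in the greater weight loss pool and 0.03 and 0.21 in the other. All were above 0, both arrays of greater weight loss lay above both of less, and the mean was 0.25 ± 0.18, with an adjusted limma p of 0.676. The files do not tell the spliced from the unspliced Xbp1 mRNA at this probe.

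Ddit3 and Trib3 stand downstream of ATF4. Ddit3 (CHOP, a factor of stress-induced cell death; NM_007837) had -0.19 and -0.13 in the greater weight loss pool and -0.41 and -0.72 in the other. Its 60-base probe has coordinates that span 304 bases of chromosome 10 (126732518 to 126732821). The GALP signal was 380 to 553 and the control signal 546 to 632, with an overlap of the ranges between 546 and 553. The mean was -0.36 ± 0.29 (SD, n = 2 pools), with an adjusted limma p of 0.699, and 1 of the 4 arrays, with 0.00106, gave a Feature Extraction p-value under 0.01. Trib3, a pseudokinase that inhibits AKT and ATF4, had 0.17 ± 0.03 at A_51_P331570, with -0.04, 0.34, 0.11 and 0.27 on the 4 arrays. At its dim probe A_52_P600274 it had -0.04 ± 0.05, with both arrays of GALP in Cy5 above 0 and both of GALP in Cy3 below. Its GALP channel reached well above background on 3 of 4 arrays.

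The 2 pools were set side by side without a test, since there was 1 pool per group and they share the control. The difference between greater and less weight loss was 0.40 for Ddit3 (-0.16 against -0.56) and 0.26 for Xbp1 (0.38 against 0.12). At A_52_P135455 no difference can be given, since the less weight loss pool has only a limit there. At the other 15 probes it was between -0.15 and 0.19. The acinar markers differed between the same pools by far more, as given above, and their part in these differences was not tested.

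Of the wider machinery, 6 lists were read at the probe with the highest mean signal of each gene. Over all 16363 genes with signal the median ratio was 0 in both pools, and 22 genes had a probe called higher and 50 a probe called lower. Signal here means well above background in any channel, and 29.6% to 35.3% of spots per array had a ratio of exactly 0. Over the probes well above background in every channel the median mean ratio was -0.02. In the 6 lists, 0 genes were called in either direction. All 21 further chaperones and foldases had signal, with medians of -0.03 in the greater and -0.06 in the less weight loss pool. Creld2, a target of ATF6, had the highest mean (0.35 ± 0.09), and Ppib, cyclophilin B, the lowest (-0.20 ± 0.17). Within each dye orientation Ppib had -0.41 (GALP in Cy5) and 0.01 (GALP in Cy3). Of 19 genes of ER-associated degradation, with medians of 0.00 and -0.05, Derl3 was highest (0.34 ± 0.48) and Derl2 lowest (-0.23 ± 0.08). Both encode derlins of the channel that exports misfolded proteins. Derl3 had 0.07 and -0.07 in the greater weight loss pool and 0.74 and 0.60 in the other, and passed the rule as higher within the less weight loss pool alone, as did 0.234% of all probes.

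The 9 sensors and their processing factors had medians of -0.03 and -0.01. Creb3l2, an ER-bound factor related to ATF6, was highest among those with signal in every channel (0.29 ± 0.04) and Eif2ak3 (PERK) lowest (-0.18 ± 0.12). Atf6 had 0.01 ± 0.03. Ern1 was well above background in 3 of 8 channels. The 28 genes of the translocon and signal peptide processing had medians of -0.00 and -0.07, between Srp68 (0.19 ± 0.06) and Spcs2 (-0.16 ± 0.16). The 20 genes of ER to Golgi transport had medians of 0.02 and -0.02. Sec31a, a subunit of the COPII coat, was highest among those with signal in every channel (0.09 ± 0.01). With normexp and loess Sec31a had -0.06, so its direction depended on the processing. Mcfd2, a partner of the cargo receptor LMAN1, was lowest (-0.16 ± 0.07). Mcfd2 had an outlier mark on 1 array of less weight loss, which was left out of its mean, and the probe was not in the limma fit.

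**Figure D4:**
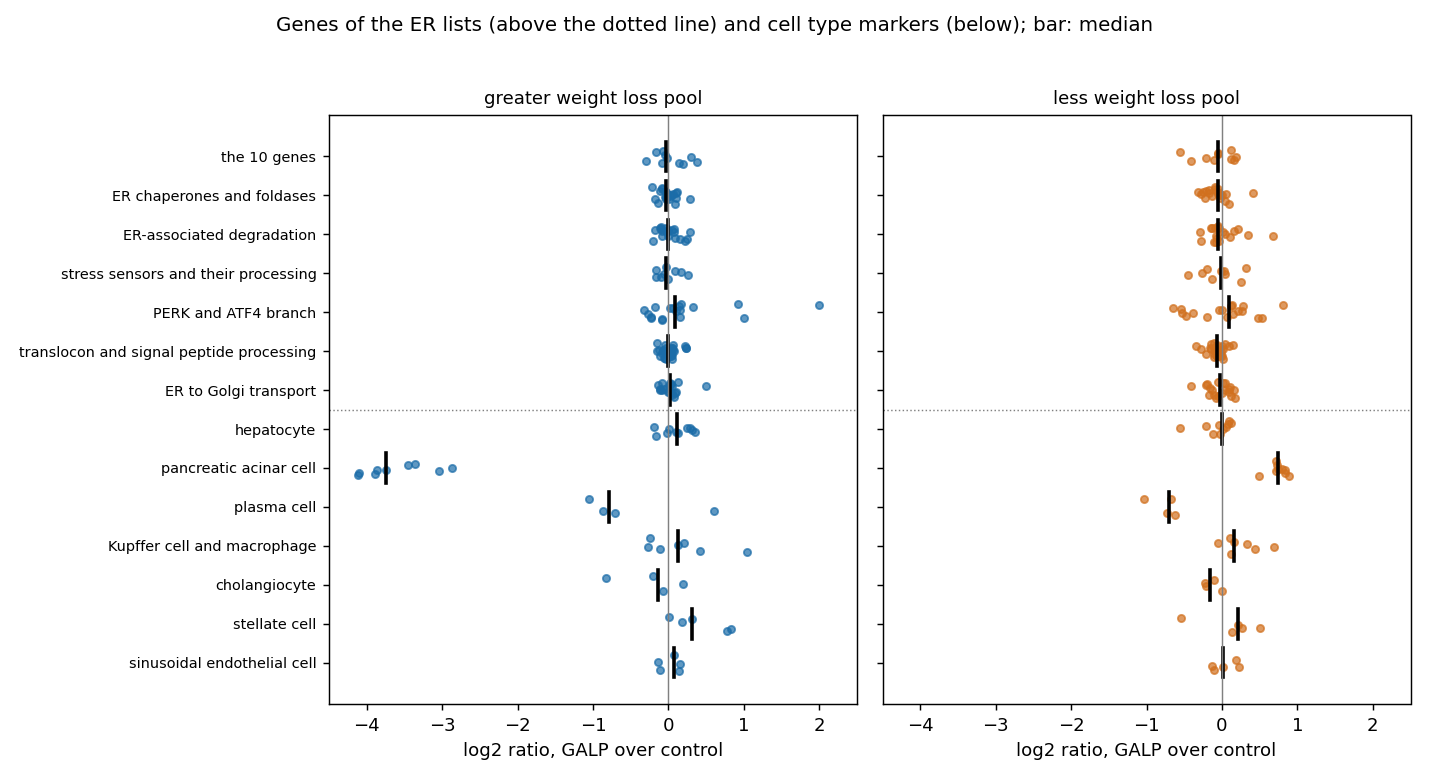
Log2 ratio of GALP over control (x axis) of each gene with signal in 7 ER lists and 7 cell type marker lists (y axis), for the greater weight loss pool (left) and the less weight loss pool (right); bars are medians. The ER lists centre between -0.07 and 0.10, the acinar markers lie at -2.88 to -4.11 on the left and at 0.49 to 0.88 on the right, and single genes of the PERK and ATF4 branch lie apart from their median.

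The PERK and ATF4 branch was the list with the widest values. Of its 20 genes, 18 had signal, and Slc7a11 and Ppp1r15a were well above background in no channel. The medians were 0.08 with greater and 0.10 with less weight loss. Atf4 itself had -0.30 ± 0.11. Asns, which makes asparagine, had the highest mean, with an SD of 1.27 that exceeded it: 2.00 and 2.00 on the arrays of greater against 0.31 and 0.11 on those of less weight loss. Gdf15, a stress-induced hormone, had the lowest (-0.46 ± 0.27), with -0.27 in the greater and -0.65 in the less weight loss pool. Within 1 pool alone, 5 genes of this list passed the rule, 3 of them higher with greater weight loss (0.292% of all probes), 1 higher with less (0.234%) and 1 lower with less (0.363%). They were picked for this after their values were seen, apart from Asns and Gdf15. With greater weight loss, Asns, Atf3 (a stress-induced transcription factor, 1.01) and Psat1 (serine synthesis, 0.93) were higher. With less weight loss, Nupr1 (a stress-induced chromatin protein, 0.80) was higher and Gdf15 was lower. In the other pool Atf3 had 0.27, Psat1 0.28 and Nupr1 -0.22. The arrays behind that Psat1 value disagreed, with -0.16 (GALP in Cy5) and 0.73 (GALP in Cy3). With normexp and loess, Asns had 1.17 with greater weight loss and Gdf15 had -0.50 with less, and both still passed, whereas Atf3 (0.33), Psat1 (0.19), Nupr1 (0.48) and Derl3 (0.53) did not. Each of these rests on 1 pool of 4 mice. The acinar markers separated the same pools, and their part in these values was not tested.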

How the data were processed

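The deposited files hold, per the file headers, the output of Agilent Feature Extraction 12.0.3.1, whereas the submitters' processing notes name 11.0.1.1. Per the labels and methods, the authors normalized the dyes by LOWESS. The authors' files give, per spot, the log10 ratio of the Cy5 to the Cy3 channel, its p-value from the software's error model, and processed intensities. The series table, also deposited, served as an alternative. Where the scanner ratio was not 0, the table's columns correlated at 1 or -1 with the scanner's log10 ratios, in the direction GALP over control. They held the same values to rounding at 28097 to 30594 of the 43379 spots per array. The scanner ratio was exactly 0 at 29.6% to 35.3% of spots per array. Over all spots the columns had medians of -0.0396, -0.0134, 0.00491 and 0.00459. How the columns were centred is not stated. Ratios were turned to log2 GALP over control, outlier-marked spots (232 to 319 per array) were left out, and spots of a probe and the 2 dye orientations of a pool were averaged. Of 41174 probes, 41037 had values on all 4 arrays. Between 40.5% and 46.7% of spots per channel were well above background, and precision is limited by how few arrays there are. limma 3.58.1 in R 4.3.3 tested the 2 pools against 0 with Benjamini-Hochberg adjustment, after a check on simulated data. The single slide allows no batch test.

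Every probe of the 10 genes was named by value. From each list, the genes called and those with the highest and lowest mean among genes well above background in every channel were named. The genes and lists were chosen with earlier results of these data known. Promoter and gene tables were RefSeq's. The labels name no replicate mice, so p-values measure only the spread between pools. Alternatives were normexp with loess, centring on the median, outlier marks ignored, the series table, each dye orientation, each pool or array left out, other p-value and fold rules, probes with signal only, an intensity trend, and the pool as a random block.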

Additional observations from a re-analysis of the deposited data

Results flagged for a closer look

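Nupr1, a stress-induced chromatin protein of the PERK and ATF4 list, lay on opposite sides of control in the 2 pools. It had -0.21 and -0.24 on the arrays of greater and 0.65 and 0.96 on those of less weight loss, a difference between the pools of -1.03 on the log2 scale (-0.22 minus 0.80). The difference was not tested, since there was 1 pool per group.

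The median of the 9 pancreatic acinar markers was -3.54 and -3.85 on the arrays of greater and 0.71 and 0.80 on those of less weight loss, a difference of -4.45 between the pools. This difference was not tested either. No probe of the 10 ER stress response genes showed both arrays of 1 pool above and both of the other below control.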

How the results depend on the processing

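The count of 0 probes called higher and, by limma, of 0 probes at an adjusted p under 0.05 was the same under every alternative run. The count of 1 probe called lower became 0 with normexp and loess and was 1 under the others. The spread between the 4 Pdia6 probes, 1.80, was 0.24 with normexp and loess, 1.28 with GALP in Cy5 alone and 2.40 with GALP in Cy3 alone. With each pool or array left out in turn it was 1.47 to 2.14. Of the 18 probes, 9 kept the sign of their ratio under every alternative that gave a value, among them both of Hsp90b1 (-0.42 to -0.15), Herpud1 (0.16 to 0.33), Xbp1 (0.12 to 0.38) and Ddit3 (-0.56 to -0.16). The sign turned in at least 1 alternative for the other 9, among them Hspa5 (-0.07 to 0.27) and Pdia4 (-0.37 to 0.12), and the cause was not tested. Of 212 values of these probes under alternatives, 52 moved by over 1 SD between pools. Many had no room to move. Centring on the median and the series table left each ratio of these probes the same to rounding. Ignoring outlier marks changed only the 2 probes that carry one. A pool left out shifts a mean by less than that SD by construction. The count of kept signs also rests in part on alternatives that left the ratios unchanged. With normexp and loess, 118 of all probes passed limma and with the pool as a random block 106, of which 0 belonged to the 10 genes. The correlation of arrays of 1 pool in that block was -0.39, and it treats the dye orientations as separate values. limma was not run with a pool left out, which would leave 1 value. Each ratio already compares GALP with control RNA on the same array, and the pooled RNA allowed no analysis by single mice. Signal over background limits A_52_P135455 and A_52_P600274 most.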

Other observations

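Some ER genes outside the 10 had close values in both pools without being called, and they were picked after their values were seen. Syvn1, the ubiquitin ligase of ER-associated degradation, had 0.29 in the greater and 0.35 in the less weight loss pool, and its partner Sel1l had 0.22 and 0.21. Of the remaining marker lists, Kupffer cell and macrophage genes had medians of 0.13 and 0.16, with Marco, a scavenger receptor, called higher (0.87 ± 0.25). Stellate cell markers had 0.32 and 0.21, sinusoidal endothelial markers 0.07 and 0.01, and cholangiocyte markers -0.14 and -0.16. Single markers, picked after their values were seen, differed more between the greater and the less weight loss pool. Des had 0.77 and -0.54, Col1a1 0.83 and 0.50, and Krt19 -0.82 and -0.10. Within the greater weight loss pool alone, Col1a1 passed the rule as higher (0.292% of all probes) and Krt19 as lower (0.395%).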
